A study of Mus musculus with 12 samples.

Results

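The genes described here keep the mitochondrial network in shape and maintain the mitochondrial genome. They are 10 genes, taken as the rows of the deposited count table with the symbols Mfn1, Mfn2, Opa1, Dnm1l, Fis1, Mff, Tfam, Tfb2m, Polg and Polrmt, out of 24421 rows in all. All 10 were found and all 10 passed the filter on low counts, as did 13937 genes of the table. RNA of the tibialis anterior, a fast hindlimb muscle, was sequenced in male mice at the age of 4 months, 6 of them C57Bl/6 (WT) and 6 mdx/mTR. Dystrophin, which anchors the fibre membrane, is lost through the mdx allele of Dmd, and mTR names the RNA of mouse telomerase. The labels give no telomerase generation, zygosity or background strain for the mdx/mTR mice, and no mice with only 1 of these changes. The effects of the mdx allele, the mTR allele and any difference in strain therefore cannot be told apart. The labels number the mice of a group but name no litter or cage.

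Mitochondria in muscle fuse and divide continually. Mitofusins join the outer membranes, OPA1 joins the inner membranes and shapes the cristae, and the GTPase DRP1, encoded by Dnm1l, is drawn to the outer membrane by receptors such as MFF and FIS1 and pinches the organelle apart. The small circular mitochondrial genome is packed by TFAM, transcribed by the RNA polymerase POLRMT with TFAM and TFB2M, and copied by the DNA polymerase POLG. Muscle fibres depend on both activities for respiratory capacity, and inherited faults in several of these genes cause nerve, eye or muscle disease.

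Library totals were 36903560 to 40981012 counts for WT and 35136327 to 60330410 counts for mdx/mTR. Levels below are CPM, counts brought to a common library size, after TMM scaling, edgeR's trimmed mean of log ratios. The TMM factors of WT libraries (0.929 to 0.971) lay below those of mdx/mTR libraries (0.988 to 1.16). The mean Dmd level was 237 CPM with an SD of 6.90 in the 6 WT mice, and 46.8 CPM with an SD of 7.20 in the 6 mdx/mTR mice. The 10 myofibre markers, among them Ckm and Acta1, summed to 198000 to 233000 CPM in WT and 157000 to 217000 CPM in mdx/mTR. P-values set the difference between the groups against the spread between the mice of a group.

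Of the 10 genes, all 3 fusion genes and all 4 genes of mitochondrial DNA upkeep were lower in mdx/mTR muscle. None of the 3 fission genes passed the test. That contrast covers these 10 genes alone: Gdap1, linked to fission and not among them, was called lower (log2 fold change -1.27). In edgeR, 7 of the 10 genes had an adjusted p below 0.05, where 48.3% of all tested genes did. All 7 were lower, against 23.4% of all tested genes called lower and 25% called higher. No member was called higher by edgeR, DESeq2 or limma-voom, and 1, Fis1, had a positive change with an unadjusted edgeR p below 0.05. The median log2 fold change over the 10 was -0.21, beside 0.01 over all tested genes. The mdx/mTR libraries lay entirely below the WT libraries for 4 of the 10, as for 12.6% of all tested genes. These shifts are small, and their size depends on how libraries are scaled. With library totals alone the median change of all genes moved up by 0.16, and only Mfn1 and Opa1 were then called lower and Fis1 higher. Of all 13937 tested genes 1560 were called lower and 5596 higher under that scaling. In bulk tissue, fewer cells of a type and less RNA per cell cannot be told apart.

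**Figure D1:**
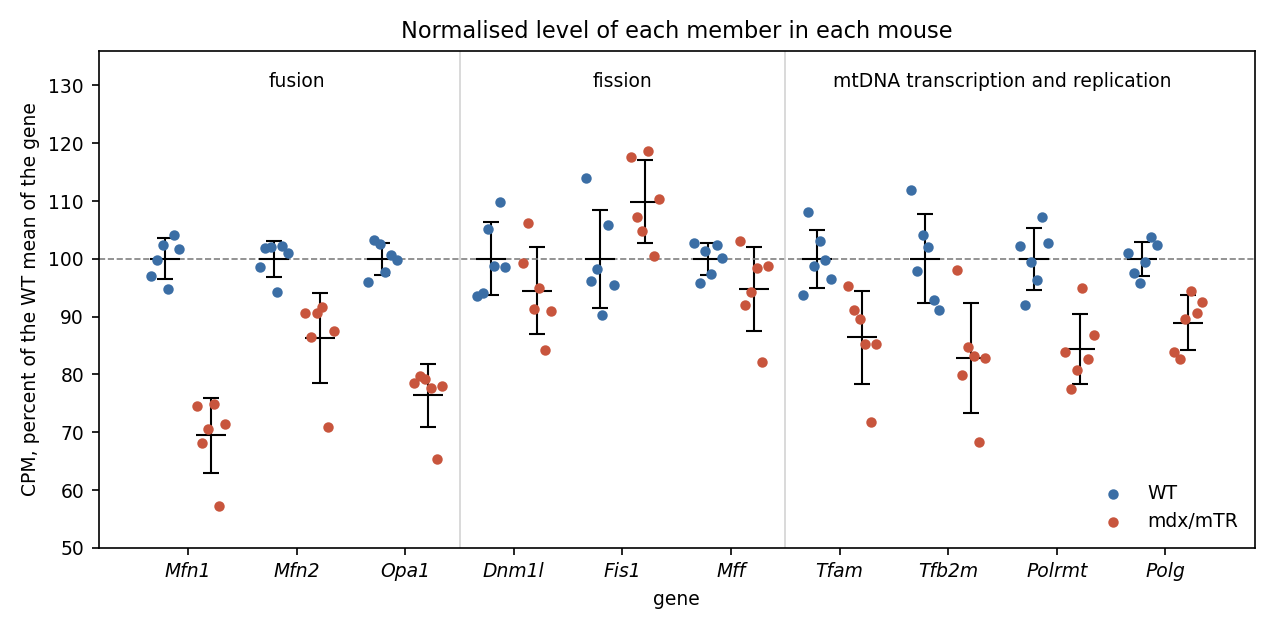
CPM of each member in each mouse as a percentage of the WT mean of that gene (vertical axis, starting at 50), with WT in blue and mdx/mTR in red; points are mice, and bars give the mean and SD over 6 mice. The red points of Mfn1, Mfn2, Opa1 and Polg lie below all blue points, those of Dnm1l, Fis1 and Mff are interleaved with them, and mdx/mTR replicate 5 is the lowest red point for 8 of the 10 genes.

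The promoters of these genes are shown first, because 7 of the 10 hold a motif of NRF1 or of ETS factors, regulators known to switch on nuclear genes for mitochondrial proteins. The motifs were chosen after these sequences had been seen. RefSeq promoter windows (GRCm38.p6, 250 bases before to 50 after each start) were found for all 10 members and were searched on both strands for GCGCATGC (NRF1), CCGGAAGT (ETS factors such as GABPA), CAAGGTCA (estrogen-related receptors) and TGACGTCA (CREB). No match of one motif overlapped a match of another in the members' windows. The NRF1 motif was in a window of 3 members, and of 3.05% of the 27025 genes with a window (2.71% of 32851 windows). The ETS motif was in a window of 4 members, and of 4.31% of the genes (3.89% of windows). These shares count all genes with a window, while all 10 members passed the filter on low counts. Both motifs were more frequent among the 10550 tested genes with a window, of which 603 held the NRF1 motif and 882 the ETS motif. The estrogen-related receptor motif (1.76% of genes, 1.56% of windows) and the CREB motif (2.03% and 1.79%) were in none of the 10. The stretches around the matches follow, 5′ to 3′ on the strand of the gene, with the match in capitals.
Opa1: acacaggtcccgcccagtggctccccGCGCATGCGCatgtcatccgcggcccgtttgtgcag
Tfb2m: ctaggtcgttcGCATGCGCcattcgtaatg
Polrmt: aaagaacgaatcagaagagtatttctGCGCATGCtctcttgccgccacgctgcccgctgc
Mfn1: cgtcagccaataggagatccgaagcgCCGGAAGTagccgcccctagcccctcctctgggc
Tfam: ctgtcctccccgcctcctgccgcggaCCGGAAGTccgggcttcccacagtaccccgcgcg
Polg: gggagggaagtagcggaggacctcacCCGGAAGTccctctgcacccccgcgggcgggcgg
Fis1, first start: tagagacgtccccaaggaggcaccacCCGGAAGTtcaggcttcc
Fis1, second start: acaggtcgatgCCGGAAGTgcctctccgcc

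These stretches lie at chr16:29579249-29579310 (plus strand) for Opa1, chr1:179546245-179546274 (minus) for Tfb2m, chr10:79746681-79746740 (minus) for Polrmt and chr3:32529412-32529471 (plus) for Mfn1. Those of Tfam, Polg and Fis1 lie at chr10:71238058-71238117 (minus), chr7:79466278-79466337 (minus) and chr5:136953231-136953274 (plus), and that of the other Fis1 start at chr5:136962085-136962114 (plus). In Opa1 the NRF1 motif overlaps its own reverse complement, giving a palindrome of 10 bases that begins 59 bases before the start. The ETS matches begin 44 bases before the start in Mfn1, 47 in Tfam, 38 in Polg and 18 in Fis1, and 20 bases after the other Fis1 start. Of the 7 genes shown 6 were called lower in mdx/mTR, and Fis1, with the ETS motif, was not called. Over all tested genes with the NRF1 motif in a window, 171 of 603 (28.4%) were called lower and 17.6% higher. Among those with the ETS motif 22.8% of 882 were lower and 18.3% higher. Of the 10550 tested genes that have a window, 23.4% were lower and 24.9% higher. With the estrogen-related receptor motif 18.3% of 142 were lower and 26.8% higher, and with the CREB motif 24.1% of 365 and 17.5%. Median log2 fold changes were -0.03 with the NRF1 motif, 0.0004 with the ETS motif and 0.01 for all genes with a window. A match is a description of letters and shows no binding.

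The fusion genes Mfn1 and Opa1 held the largest changes of the 10. The other fusion gene, Mfn2 (-13.7%), changed less than Tfb2m (-17.2%) and Polrmt (-15.6%). Mfn1 (chromosome 3, 32529465 to 32579239 on the plus strand of GRCm38) encodes mitofusin 1, which tethers and joins outer membranes. Its level ran from 333 to 366 CPM in WT mice, with a median of 354.5, and from 201 to 263 CPM in mdx/mTR mice, with a median of 249.6. The highest mdx/mTR mouse was below the lowest WT mouse. Mean Mfn1 was 352 ± 12.5 CPM for WT and 244 ± 22.98 CPM for mdx/mTR (SD, n = 6 each), a change of -30.6% (log2 fold change -0.53 ± 0.06 SE, edgeR adjusted p 2.17e-05). It remained below an adjusted p of 0.05 under all 20 alternative fits run for it, with log2 fold changes from -0.55 to -0.38.

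Opa1 (chromosome 16, 29579334 to 29654884, plus strand) encodes the inner-membrane fusion GTPase, whose loss breaks the network into fragments. Its level ran from 222 to 239 CPM in WT, with a median of 232, and from 151 to 184 CPM in mdx/mTR, with a median of 181. In mdx/mTR replicates 1, 2, 3, 4 and 6 it lay within 179.5 to 184.4 CPM, and replicate 5 stood apart at 151 CPM. The change was -0.39 ± 0.05 on the log2 scale, or -23.6% (edgeR adjusted p 5.2e-05), and -0.35 without mdx/mTR replicate 5 (adjusted p 1.2e-05). Opa1, like Mfn1, kept its call under all 20 alternative fits.

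Mfn2 (chromosome 4, 147873599 to 147904704, minus strand) encodes mitofusin 2, which also links mitochondria to the endoplasmic reticulum and is mutated in an inherited neuropathy. WT mice ran from 935 to 1014 CPM (median 1007) and mdx/mTR mice from 704 to 910 CPM (median 883), without overlap. The log2 fold change was -0.21 ± 0.06 (edgeR adjusted p 0.0144), and -0.17 without mdx/mTR replicate 5, the lowest mouse (adjusted p 0.00831). With library totals alone it was -0.06 (adjusted p 0.284).

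Of the fission genes, Dnm1l (chromosome 16, 16312230 to 16358959, minus strand) encodes the GTPase that constricts mitochondria. Its level ran from 108 to 127 CPM in WT mice (median 114) and from 97.2 to 123 CPM in mdx/mTR mice (median 108), and the groups overlapped. The difference of -0.08 on the log2 scale had a 95% interval from -0.21 to 0.05 (edgeR adjusted p 0.275). Mff (chromosome 1, 82724890 to 82752394, plus strand) encodes the main outer-membrane receptor of that GTPase. It ran from 129.9 to 139 CPM in WT mice (median 137) and from 111 to 139.8 CPM in mdx/mTR mice (median 130.5), so that the highest mouse of all was an mdx/mTR mouse. Mff had a difference of -0.08 (95% interval -0.19 to 0.03, adjusted p 0.238). Both differences were positive with library totals alone, at 0.07 each (adjusted p 0.289 for Dnm1l and 0.0729 for Mff).

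Fis1 (chromosome 5, 136953275 to 136966234, plus strand), a small tail-anchored outer-membrane protein linked to fission and mitophagy, was the only member with a higher mean in mdx/mTR. It ran from 60.5 to 76.4 CPM in WT mice (median 65.15) and from 67.4 to 79.5 CPM in mdx/mTR mice (median 72.96). WT replicate 1, the highest WT mouse, lay above 4 of the 6 mdx/mTR mice. The log2 fold change was 0.14 ± 0.06 (edgeR adjusted p 0.081). It passed at 0.18 without WT replicate 1 (adjusted p 0.0235), at 0.18 with upper quartile scaling (adjusted p 0.0244), at 0.15 with a filter at 1 CPM (adjusted p 0.0494) and at 0.29 with library totals alone (adjusted p 5.2e-04).

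**Figure D2:**
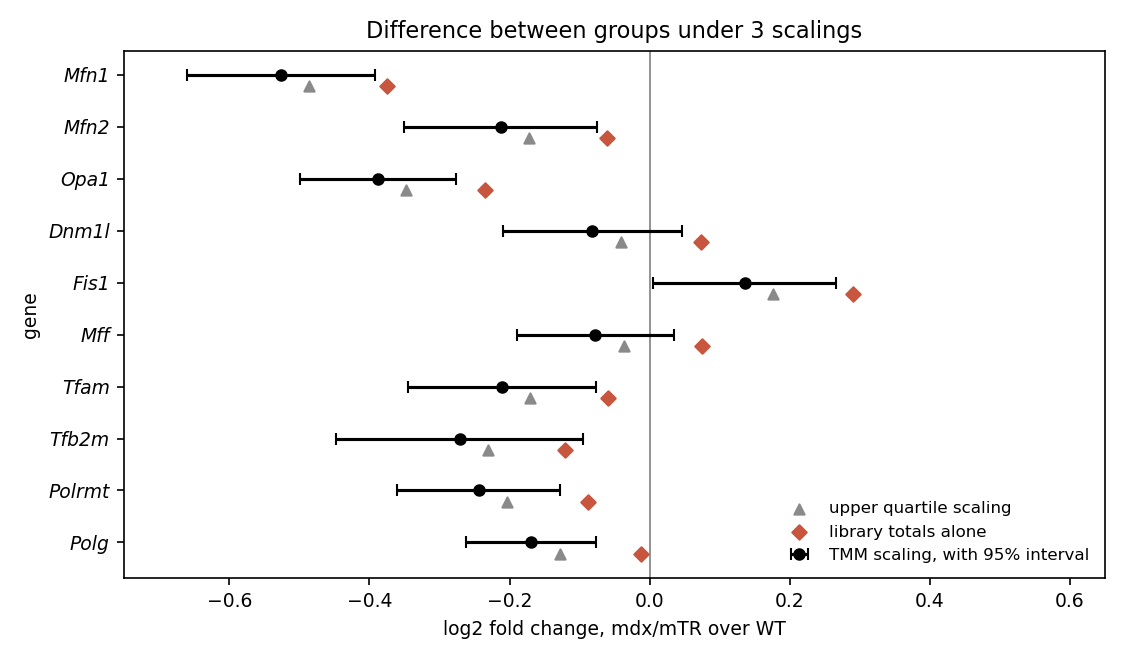
Log2 fold change (horizontal axis, mdx/mTR over WT) for each member, as black points with 95% intervals under TMM scaling, grey triangles under upper quartile scaling and red diamonds with library totals alone. Mfn1 and Opa1 are farthest below 0 in all 3 scalings, Dnm1l and Mff change sign with library totals alone, and Fis1 is above 0 throughout.

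Ratios of 2 members within a mouse hardly depend on the scaling of libraries, and 5 such pairs were compared. The mean Mfn1 to Mfn2 ratio was 0.355 ± 0.00518 for WT and 0.286 ± 0.00629 for mdx/mTR (SD, n = 6 each). On the log2 scale the ratio was -1.50 in WT and -1.81 in mdx/mTR, a difference of -0.31. It had the smallest spread of the 5 pairs in both groups, and every mdx/mTR mouse lay below every WT mouse. The 2-sided exact permutation test gave p 0.00216, the smallest that 924 regroupings allow, and 0.00361 adjusted over the 5 pairs. Mfn1 transcripts thus became fewer relative to those of its paralog.

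The ratio of Opa1 to Dnm1l, inner-membrane fusion against the fission GTPase, averaged 2.0 ± 0.118 in WT and 1.62 ± 0.0913 in mdx/mTR. The difference on the log2 scale was -0.31, again without overlap (exact permutation p 0.00216, adjusted p 0.00361). Fis1 to Mff, the 2 outer-membrane fission factors, averaged 0.496 ± 0.0324 in WT and 0.576 ± 0.0230 in mdx/mTR. Its log2 difference was 0.22 (exact permutation p 0.00216, adjusted p 0.00361). The groups did not overlap, but only narrowly: the highest WT mouse was at -0.862 and the lowest mdx/mTR mouse at -0.859 on the log2 scale.

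Within the mitochondrial DNA genes no shift in balance passed the test. Tfam to Tfb2m averaged 4.74 ± 0.452 in WT and 4.89 ± 0.248 in mdx/mTR, a log2 difference of 0.05 (exact permutation p 0.489, adjusted p 0.489). Polg to Polrmt averaged 1.27 ± 0.0468 in WT and 1.34 ± 0.0598 in mdx/mTR (log2 difference 0.07, exact permutation p 0.0563, adjusted p 0.0703). The Polg to Polrmt difference passed without WT replicate 2 (0.09, exact permutation adjusted p 0.0352), without mdx/mTR replicate 1 (0.09, adjusted p 0.0379) and without mdx/mTR replicate 4 (0.09, adjusted p 0.0298).

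**Figure D3:**
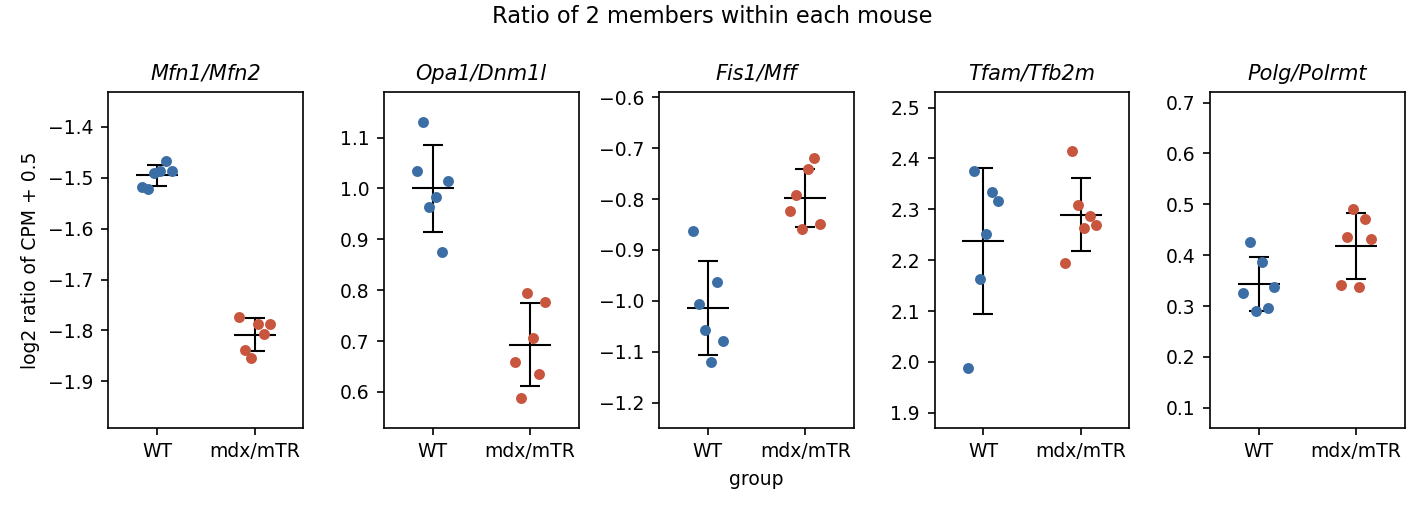
Log2 ratio of the CPM of 2 members (each with 0.5 added) in each mouse, in 5 panels of equal vertical span, with WT in blue and mdx/mTR in red and bars for the mean and SD over 6 mice. The groups separate for Mfn1/Mfn2, Opa1/Dnm1l and, narrowly, Fis1/Mff, and overlap for Tfam/Tfb2m and Polg/Polrmt.

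The 4 genes of the mitochondrial genome were all lower in mdx/mTR, with changes from -17.2% to -11.1%. Polrmt (chromosome 10, 79736123 to 79746581, minus strand), the mitochondrial RNA polymerase, ran from 38.05 to 44.3 CPM in WT, with a median of 41.7, and from 32.0 to 39.2 CPM in mdx/mTR, with a median of 34.5. Only mdx/mTR replicate 4, at 39.2 CPM, reached into the WT range. The log2 fold change was -0.24 ± 0.05 (edgeR adjusted p 0.00224).

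Polg (chromosome 7, 79446231 to 79466362, minus strand), the catalytic subunit of the replicative polymerase, ran from 50.4 to 54.5 CPM in WT, with a median of 52.7, and from 43.5 to 49.7 CPM in mdx/mTR, with a median of 47.4. Its groups did not overlap, and its log2 fold change of -0.17 ± 0.04 (edgeR adjusted p 0.00567) was the smallest of the 7 calls. The gene overlaps Fanci on the opposite strand over 921 exonic bases, 8.57% of its exons. Strand handling is not given in the sources used here, but Fanci had only 31 to 75 counts a library, against 1724 to 2969 for Polg.

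Tfam (chromosome 10, 71225464 to 71238280, minus strand), which packs the mitochondrial genome and opens its promoters, ran from 55.45 to 63.98 CPM in WT, with a median of 58.75. In mdx/mTR it ran from 42.5 to 56.4 CPM, with a median of 51.7. Only mdx/mTR replicate 1, at 56.4 CPM, exceeded any WT mouse. The change was -0.21 ± 0.06 (edgeR adjusted p 0.0126), and -0.17 without mdx/mTR replicate 5 (adjusted p 0.0116).

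Tfb2m (chromosome 1, 179528055 to 179546267, minus strand), the factor that melts the promoter for the polymerase, was the least abundant member. It ran from 11.1 to 13.6 CPM in WT, with a median of 12.2, and from 8.31 to 11.9 CPM in mdx/mTR, with a median of 10.1. The groups overlapped, and the log2 fold change was -0.27 ± 0.08 (edgeR adjusted p 0.0144). Of the 50-base stretches of its transcript, 39.6% also occur in Gm1818, which has no row among the counts. The level of Tfb2m is uncertain, since the treatment of reads with several matches is not given in the sources used here. Among the other members that share was at most 2.94%, in Dnm1l.

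With library totals alone none of these 4 genes passed. Their log2 fold changes were then -0.09 for Polrmt (edgeR adjusted p 0.194), -0.01 for Polg (0.868), -0.06 for Tfam (0.37) and -0.12 for Tfb2m (0.146). The transcripts encoded by the mitochondrial genome itself, 15 names from mt-Nd1 to mt-Rnr2, were not analysed here, since 0 of the 15 matched a row.

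Levels of different genes were set side by side as CPM per kilobase of the longest coding transcript in GENCODE M21. On this scale Mfn2 was by far the most abundant member in WT, at 229 ± 7.17 (SD, n = 6). Mfn1 (77.1 ± 2.74), Fis1 (70.7 ± 6.02) and Mff (64.96 ± 1.82) came next, and the ranges of Mfn1 and Fis1, and of Fis1 and Mff, overlapped. Below them were Opa1 (37.1 ± 1.04) and Dnm1l (29.1 ± 1.84). The mitochondrial DNA genes took the last 4 places, from Tfam (14.2 ± 0.719) through Polrmt (11.01 ± 0.586) and Polg (6.71 ± 0.201) to Tfb2m (4.97 ± 0.382). No other neighbours in the WT order overlapped. In mdx/mTR mice Mfn1, at 53.5 ± 5.04 CPM per kilobase, came after Mfn2 (197 ± 17.8), Fis1 (77.7 ± 5.07) and Mff (61.6 ± 4.74). The mdx/mTR ranges of Mff and Mfn1, of Opa1 and Dnm1l, and of Tfam and Polrmt overlapped. Mff, with 10 coding transcripts, came after Opa1 and Dnm1l in WT, at 13.9 CPM per kilobase, when the union of all exons was used as the length, so its place is uncertain.

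**Figure D4:**
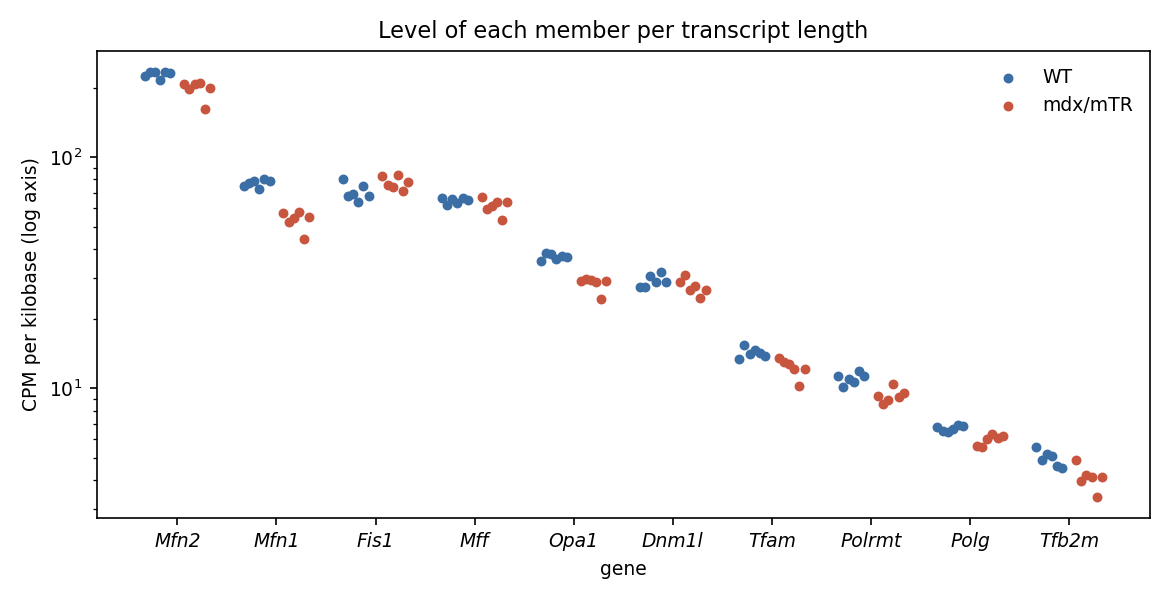
CPM per kilobase of the longest coding transcript (logarithmic vertical axis) for each member in each mouse, WT in blue and mdx/mTR in red, with genes in the order of their WT means. Mfn2 is the most abundant at 229 in WT, the genes of mitochondrial DNA upkeep occupy the last 4 places, and Mfn1 drops below Fis1 and Mff in mdx/mTR.

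The spread among mdx/mTR mice rested in large part on mdx/mTR replicate 5. With all mice, the SD as a percentage of the mean was larger in mdx/mTR than in WT for 9 of the 10 genes, all but Fis1, and for 62.7% of all tested genes. Without that mouse it was larger for 6 of the 10 and for 53.4% of all tested genes, a comparison chosen after seeing the data. For Mfn1 it was 3.55% in WT and 9.41% in mdx/mTR, and 3.96% in mdx/mTR without replicate 5. The order turned round for Mfn2 (3.14% in WT and 2.53% in mdx/mTR without that mouse), for Opa1 (2.79% and 1.12%) and for Tfam (5.06% and 4.79%). This library was the lowest of its group for 8 of the 10 members, all but Polg and Polrmt. The same library had the highest summed macrophage markers (714 CPM, from 265 in the lowest mdx/mTR mouse) and fibroblast markers (5780 CPM, from 2830), and the lowest summed myofibre markers (157000 CPM).

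Those marker lists also differed between the groups, beside the changes of the members. Of 10 macrophage markers 9 were higher in mdx/mTR, with a summed level of 96.0 to 164 CPM in WT and 265 to 714 CPM in mdx/mTR. All 8 fibroblast markers were higher, at 1110 to 2120 and 2830 to 5780 CPM. The myofibre list had 1 gene higher and 2 lower of 10, with a median log2 fold change of -0.19, beside -0.21 for the members. Of 8 endothelial markers 5 were lower and 1 higher, and of 8 satellite cell and myoblast markers 5 were higher and 1 lower. The Schwann cell list had 4 of 5 lower and none higher in edgeR, and of 5 neutrophil markers 3 were tested and 2 were higher. Of 6 T cell markers only Cd4 had enough counts to be tested, and it was higher, and of 4 adipocyte markers 3 were tested and none passed. The part of the cell mixture in the members' changes was not tested. Without mdx/mTR replicate 5 the same number of members, 7, were called lower, and their median change was -0.17.

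Within groups, several members rose and fell together from mouse to mouse. Over the 12 libraries, as deviations of log2 CPM from the group mean, Mfn1 and Mfn2 had a Pearson r of 0.968, Mfn2 and Opa1 0.922, and Opa1 and Tfam 0.865. Polg and Polrmt had an r of 0.745, while Tfam and Polg had -0.51. The median over the 45 pairs of members was 0.523. These values changed without mdx/mTR replicate 5: over the other 11 libraries the median was 0.202, with 0.853 for Mfn1 and Mfn2, 0.45 for Mfn2 and Opa1, 0.541 for Opa1 and Tfam, 0.773 for Polg and Polrmt and -0.66 for Tfam and Polg. The pairs share their libraries and scaling and are a description only.

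The genes most like each called member were searched among 9507 genes with at least 5 CPM, by the same r over 12 libraries. For Mfn1 they were Mfn2 (0.968), Adsl (0.955) and Abcb8 (0.952), and for Mfn2 they were Slc25a12 (0.978), Sdhc (0.978) and Mfn1. Slc25a12 encodes a mitochondrial aspartate-glutamate carrier and Sdhc a subunit of respiratory complex II. For Opa1 they were Idh3a (0.974), a subunit of a citric acid cycle enzyme, Cbr4 (0.968) and Nkiras1 (0.961). Genes like Tfam included Osbpl1a (0.95) and Hibch (0.939), and those most like Tfb2m were Nit1 (0.938), Ythdc1 (0.924) and Ttll5 (0.912). Polg was most like Slc46a3 (0.898), Polr2f (0.894) and Mnt (0.869), and Polrmt like Klhl21 (0.93), Vps13b (0.923) and Exosc10 (0.922). Without mdx/mTR replicate 5 these values were between 0.778 and 0.948, lowest for Opa1 with Nkiras1.

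The other genes of the same processes were read from 5 lists. Of 27 other fusion and fission genes 24 were tested, and 15 were lower and 0 higher in edgeR, with a median log2 fold change of -0.19. Of all tested genes 23.4% were lower and 25% higher. All 24 had a negative fold change in this fit, and of the 9 without a call only Slc25a46 had an unadjusted edgeR p below 0.05 (0.0415). Without the filter on low counts, and in DESeq2, 15 genes of the list were lower and 1 was higher. The smallest p-values were those of Mtfr1 (-0.40 ± 0.05, edgeR adjusted p 3.95e-05), Chchd3 (-0.38), a cristae-organising protein, Rhot2 (-0.42), a GTPase that carries mitochondria along microtubules, and Gdap1 (-1.27 ± 0.23, adjusted p 4.9e-04), an outer-membrane protein linked to fission. Gdap1 averaged 30.98 ± 4.56 CPM in WT mice and 12.8 ± 4.72 CPM in mdx/mTR mice, the largest fall on this list.

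Of 28 other genes of mitochondrial DNA replication, transcription and nucleotide supply, all were tested, 9 were lower and 5 higher, and the median was -0.14. The 14 calls of 28 are near the 48.3% called among all tested genes, of which 23.4% were lower and 25% higher. The smallest p-values were those of the mitochondrial topoisomerase Top1mt (-0.76 ± 0.08, edgeR adjusted p 7.3e-06), from 17.2 ± 0.708 to 10.2 ± 1.28 CPM, the RNA-stabilising protein Lrpprc (-0.43), Atad3a (-0.46), which sits at nucleoids, and the replicative helicase Twnk, listed as Peo1 (-0.31). The 5 that rose, named after their values were seen, were Tk2 (0.43), which makes nucleotides inside the mitochondrion, Mpv17 (0.36), an inner-membrane protein whose loss depletes mitochondrial DNA, Mterf4 (0.28), Top3a (0.26) and Dna2 (0.84). Dna2 and Top3a also act in the nucleus.

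Among 10 regulators of mitochondrial biogenesis 6 were lower and 1, Gabpb1 (0.27), was higher, with a median of -0.16. Among all tested genes 23.4% were lower and 25% higher. Nrf1 was not called (0.09, edgeR adjusted p 0.266), and Gabpa was called lower (-0.12, edgeR adjusted p 0.0471). The largest fall was that of the estrogen-related receptor gene Esrrg (-1.33 ± 0.18, edgeR adjusted p 5.35e-05), from 39.0 ± 4.2 to 15.5 ± 5.22 CPM. Ppargc1b (-0.78), a coactivator of these receptors, Esrra (-0.45) and the lysosomal regulator Tfeb (-0.36) followed by p-value. Of 10 mitophagy genes 4 were lower and 1, the kinase gene Tbk1 (0.14), was higher, and the median was -0.12. These 5 calls of 10 are near the 48.3% called among all tested genes. The higher call of Tbk1 (edgeR adjusted p 0.0464) was not stable: no gene of the list was called higher with relative log expression scaling, DESeq2, no filter or the replicate block, nor in 9 of the 12 fits without 1 mouse (WT replicates 1, 2, 3, 5 or 6 or mdx/mTR replicates 1, 2, 5 or 6). The autophagy receptor Optn fell from 156 ± 21.3 to 84.1 ± 7.93 CPM (-0.89, adjusted p 6.33e-06), and the other falls included Bcl2l13 (-0.18) and Sqstm1 (-0.22). The mitophagy count was 3 in 7 of the 12 fits without 1 mouse (without WT replicates 2, 3, 5 or 6 or mdx/mTR replicates 2, 5 or 6) and 4 in the others.

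Nuclear genes for abundant mitochondrial proteins, called mass genes here, were the last list. Only their RNA was measured, and mitochondrial mass itself was not. Of 17 such genes 11 were lower and 0 higher in edgeR, with a median of -0.24, beside -0.21 for the members. Among all tested genes 23.4% were lower and 25% higher. The mitochondrial chaperone genes Hspd1 (-0.55 ± 0.05, edgeR adjusted p 1.3e-06) and Hspa9 (-0.41), the cytochrome c gene Cycs (-0.44) and the complex I gene Ndufs1 (-0.33) had the smallest p-values. With library totals alone the medians were -0.03 for the other fusion and fission genes, 0.01 for the other mitochondrial DNA genes, 0.0006 for the biogenesis regulators, 0.03 for mitophagy and -0.09 for the mass genes. The directions of the calls shifted under that scaling, with 1560 of all 13937 tested genes lower and 5596 higher. The other fusion and fission genes then had 4 lower and 1 higher, the other mitochondrial DNA genes 7 lower and 7 higher, the biogenesis regulators 4 lower and 2 higher, mitophagy 1 lower and 3 higher, and the mass genes 4 lower and 1 higher.

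**Figure D5:**
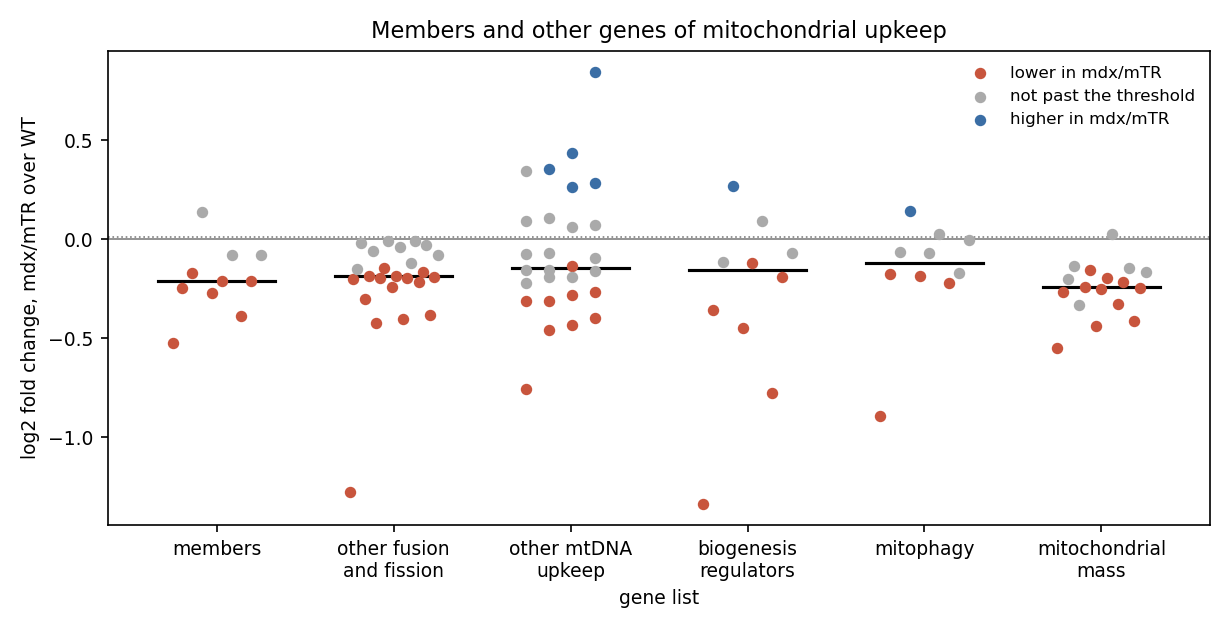
Log2 fold change (vertical axis, mdx/mTR over WT) of each tested gene, by gene list, in red where lower and blue where higher at an edgeR adjusted p below 0.05 and grey otherwise; black bars are list medians, and the dotted line at 0.01 is the median of all tested genes. All 6 medians lie between -0.24 and -0.12, and Esrrg, Gdap1 and Optn are the lowest points of their lists.

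In the authors' deposited table the same 7 members have an adjusted p below 0.05. The authors' deposited table lists log2 fold changes of -0.53 for Mfn1, -0.39 for Opa1 and -0.22 for Mfn2, and 0.13 for Fis1 with an adjusted p of 0.121. Polrmt has -0.25 and Polg -0.18 in the authors' deposited table, close to -0.24 and -0.17 in edgeR.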

How the data were processed

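The authors deposited raw counts per gene symbol, 1 column per mouse, and a table of their own comparison. FastQC, STAR, DESeq2 and the build mm10 are named, without versions, per the submitters' processing notes; the counter, annotation and strand handling are not given in the sources used here. The columns of the authors' deposited table are, per the file headers, a normalized signal averaged over samples, p-values, a test score, and a log2 fold change with a standard error. Groups and replicate numbers come from the sample titles. No libraries had identical counts, and 0 per-sample columns were unmatched.

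The counts were tested over all 13937 genes kept by filterByExpr (99.97% of counts) with edgeR 4.0.16 in R 4.3.3, using TMM, a quasi-likelihood test with group as the only term, and Benjamini-Hochberg adjustment at 0.05. SE is the size of the log2 fold change divided by the square root of F. DESeq2 1.42.0, limma 3.58.1 (voom), other scalings and filters, a replicate block and each mouse left out were the alternatives. Pair ratios used exact permutation tests in Python 3.11.15 with numpy 2.4.6, on log2(CPM + 0.5). The procedure was tested on simulated counts in which few genes changed, up or down at random, and by more than most members did. That test cannot decide between scalings. Coordinates, lengths and shared 50-base stretches come from GENCODE M21 (GRCm38). The members and lists were chosen with earlier results of these data known, and the promoter motifs after the windows had been seen. The text names all members, up to 4 genes of smallest p per list, and the 3 genes most like each called member, of which 1 is not reported here; Slc25a46, Gabpb1 and the 5 genes of the mitochondrial DNA list that rose were named after their values were seen. Of the list names, 26 of 27 fusion and fission genes matched a row; 27 rows carry date-like names, which hides symbols such as March5.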

Additional observations from a re-analysis of the deposited data

Results flagged for a closer look

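For every member and pair ratio, the distance of the highest and the lowest mouse from its neighbour was divided by the spread of the 6 values and set against Dixon's 95% critical value. This was done in 30 sets of values, and 2 lay past it, where chance gives about 1.5. Both were the low value of mdx/mTR replicate 5: Mfn2 at 704 CPM, against 857.9 to 910.0 in the other mdx/mTR mice (ratio 0.747), and Opa1 at 151 CPM, against 179.5 to 184 (ratio 0.851). Without this mouse the log2 fold change was -0.17 for Mfn2 and -0.35 for Opa1, and both kept their call (edgeR adjusted p 0.00831 and 1.2e-05).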

How the results depend on the processing

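Of the 7 members called lower, Mfn1 and Opa1 kept their call in all 20 alternative fits, and Mfn2, Tfam, Tfb2m, Polg and Polrmt in 19, all but library totals alone, where the cause was not tested. With library totals alone 3 members passed, 1 higher and 2 lower, where 7156 of all 13937 tested genes passed. Dnm1l was then 0.0738 and Mff 0.0746 in place of negative values. In that fit 5 of the other fusion and fission genes and 5 of the mass genes were called. Of all calls 78.2% were then higher in place of 51.6%, and 59.4% with upper quartile scaling. At an adjusted p below 0.01, 4 members passed, all 4 lower, with 8 of the other fusion and fission genes, 2 mitophagy genes and 7 mass genes. Of all 13937 tested genes 4621 passed at that threshold, 2246 of them lower. The number of members called higher was 1 with upper quartile scaling and 1 with the filter at 1 CPM in 6 libraries, in each case Fis1. Mitophagy genes numbered 3 without a filter.

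Leaving out 1 mouse at a time gave 7 to 8 members called, 0 to 1 higher, 7 lower in each fit, 3 to 4 mitophagy genes, and a Polg to Polrmt difference of 0.0594 to 0.0902. The Tfam to Tfb2m difference was -0.0076 with a pseudocount of 5, where its exact permutation adjusted p was 0.894.

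Same-numbered mice had deviations correlated from -0.155 to 0.354, and 2 of 6 pairs exceeded 0.1 (replicates 1 and 2). In these 2 of 6 the WT mouse correlated best with its own number. The labels give same-numbered mice nothing in common but the number, and 6 pairs cannot show whether they shared handling. With a replicate block 7 members, 3 mitophagy genes and 6420 of all genes passed. As differences within same-numbered mice (the block for ratios), Mfn1/Mfn2 was -0.313, Opa1/Dnm1l -0.307 and Fis1/Mff 0.217, each with an exact sign-flip p of 0.0312, the smallest that 6 pairs allow, and 0.0521 after adjustment. No member's call changed with the block. Depth did not limit the members, since 3 counts correspond to at most 0.0837 CPM.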
